A study of Mus musculus with 16 samples.

Results

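The genes described here are the protein components of the cytosolic ribosome. They were taken by name from the normalized count table: symbols of the form Rpl or Rps followed by a number, the stalk genes Rplp0, Rplp1 and Rplp2, and Rpsa. Of 83 genes with such a name, 81 reached 10 normalized counts (reads divided by the library's size factor) in 4 or more of the 16 libraries, out of 22372 genes in the table and 13331 that passed the same filter. The 81 members comprised 48 genes of the large subunit (Rpl) and 33 of the small subunit (Rps). The other 2 names were Rpl39l, with 0 to 7.05 normalized counts per library, and Rpl10l, which was at 0 in every library except for a single read in TAC-Veh replicate 4. Another 55 rows were named as ribosomal protein pseudogenes, and none of them passed the filter.

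RNA was sequenced from pieces of heart ventricle of C57BL/6J mice, 10 to 12 weeks old when the experiment began, with 4 libraries in each of 4 groups. Sham-Veh and Sham-THZ1 mice had the operation without the constriction, and TAC-Veh and TAC-THZ1 mice had transverse aortic constriction (TAC), a suture around the aortic arch that loads the left ventricle with pressure. THZ1 is a covalent inhibitor of the transcriptional kinases CDK7, CDK12 and CDK13. Per the labels, 10 mg/kg was injected into the peritoneum 2 times daily between postoperative days 1 and 60, and the other groups received vehicle. The study's methods state that all mice were male. The samples are bulk tissue, in which fewer cells of a type and less RNA per cell cannot be told apart.

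A cytosolic ribosome is built from ribosomal RNA and one set of ribosomal proteins, and cells make the small and large subunit proteins in matched amounts. Growth of the heart muscle cell under load is accompanied by the building of more ribosomes. Many ribosomal protein mRNAs begin with an unbroken run of pyrimidines, the 5′ terminal oligopyrimidine (TOP) tract, through which the TORC1 kinase and Larp1 control their translation. Vertebrates also have paralogues of a few ribosomal proteins. Rpl3l is the form of Rpl3 found in heart and skeletal muscle.

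The start-site windows below are shown because the pyrimidine run is the sequence feature by which this family is best known. Rpl3l, whose RNA behaved unlike that of the other members, is included. It is 1 of 38 members with a window and a run shorter than 8 bases, so that its short run does not set it apart. Each window runs from 10 bases before the RefSeq start to 20 bases into the gene, 5′ to 3′ on the gene's strand, in build GRCm38.p6, with the longest run of C or T that reaches within 5 bases of the start in capitals.
Rpl27a, chr7:109519185-109519214, plus strand: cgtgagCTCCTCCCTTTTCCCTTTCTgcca
Rpl13a, chr7:45128726-45128755, minus strand: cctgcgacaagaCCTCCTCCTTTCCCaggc
Rps6, chr4:86857348-86857377, minus strand: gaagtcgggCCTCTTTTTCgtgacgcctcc
Rplp2, chr7:141447641-141447670, plus strand: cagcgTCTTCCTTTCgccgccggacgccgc
Rpl22l1, chr3:28805498-28805527, plus strand: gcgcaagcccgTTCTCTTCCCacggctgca
Rps2, chr17:24720053-24720082, plus strand: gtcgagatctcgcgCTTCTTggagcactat
Rpl3l, chr17:24727816-24727845, plus strand: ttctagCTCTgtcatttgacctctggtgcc
The run was 20 bases long in Rpl27a, 14 in Rpl13a, 10 in Rps6, Rplp2 and Rpl22l1, 6 in Rps2 and 4 in Rpl3l. A window was matched for 59 of the 81 members, Rpl3 not among them. A run of at least 8 was present in 21 of the 59, or 35.6%, against 9.64% of all 27025 genes with a window. The median run of the 59 was 5, so that the windows shown lean toward long runs. The annotated start need not be the one used in the heart.

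The recovered reads in the listed genes numbered 21431703 to 35812869 per library, of which 33.2% to 44.7% came from the 13 genes of the mitochondrial genome. The members together took 0.536% to 0.967% of the reads. The labels number the replicates without naming the animals, and p-values measure the spread between these samples. The main limma fit uses a single estimate of that spread per gene, shared by all groups. No batch or date was given. TAC-Veh replicates 1 and 4 stood apart from each other in the members, as described below. Nppa, the natriuretic peptide A gene, had 199788 normalized counts in replicate 1 and 49207 in replicate 4, the highest and the lowest of TAC-Veh, against 2743 to 4544 in Sham-Veh. Whether this goes with the spread of the members was not tested.

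In sham hearts the members varied little between libraries. Their summed normalized count was 164508, 165610, 164495 and 158506 in Sham-Veh replicates 1 to 4, and 167347, 171020, 167933 and 162219 in Sham-THZ1. The coefficient of variation over the 4 hearts had a median over the members of 3.65% in both groups. Per kilobase of exon, averaged over all libraries, Rplp1 (9175 normalized counts per kilobase), Rpl4 (8357) and Rpl8 (7105) stood highest, and Rpl10a (229.1), Rps19 (265.9) and the Rps4x paralogue named Rps4y2 in the annotation used here (304.0) stood lowest, around a median of 1324. Rplp1 is an acidic protein of the stalk that recruits translation factors. These levels divide by all exon sequence annotated for a gene, 4685 bases for Rps19 and 495 for Rplp1, and so depend on how many long isoforms are annotated. They also depend on pseudogene copies: of the 40-base pieces of a member's transcripts, a median of 49.2% occurred nowhere else in the mm9 genome, with under 10% for 8 members and at least 90% for 7. All 8 of the former still had mean counts of at least 1247. How the aligned reads with several places were treated is not given in the sources used here, and levels of different members carry this limit.

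With TAC, the cytosolic ribosomal proteins were higher nearly as a block, under vehicle with a wide spread between hearts and under THZ1 with a narrow one. The median coefficient of variation of a member was 24.3% in TAC-Veh and 6.39% in TAC-THZ1, a difference in spread that was not tested. The sum was 274830, 207992, 214919 and 155697 in TAC-Veh replicates 1 to 4. It was 245515, 223385, 231874 and 218671 in TAC-THZ1. All 4 TAC-THZ1 hearts thus lay above every sham heart, whereas in TAC-Veh 3 hearts lay above the sham range and replicate 4 lay below it. The group means were 213359 ± 48768 (SD, n = 4) in TAC-Veh and 229861 ± 11779 (SD, n = 4) in TAC-THZ1, 1.31 and 1.38 times those of their sham groups. As a share of the reads outside the mitochondrial genes, the members took 0.945% ± 0.0272 (SD, n = 4) in Sham-Veh, 0.956% ± 0.0203 (SD, n = 4) in Sham-THZ1, 1.29% ± 0.245 (SD, n = 4) in TAC-Veh and 1.34% ± 0.0965 (SD, n = 4) in TAC-THZ1.

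**Figure D1:**
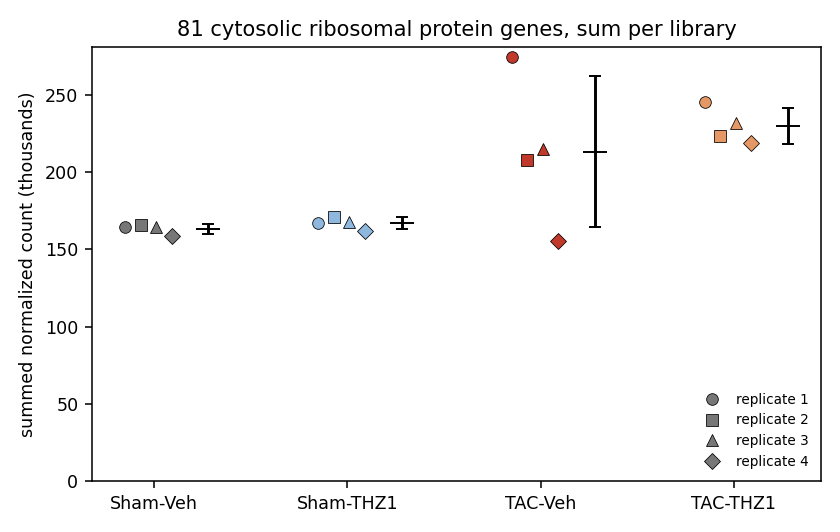
Summed normalized count of the 81 cytosolic ribosomal protein genes in each library, by group, with marker shape for the replicate number and the mean ± SD of 4 hearts beside the points. TAC-Veh ran from 155697 to 274830, while the 4 TAC-THZ1 hearts lay between 218671 and 245515, above all 8 sham hearts, the highest of which was at 171020.

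Under vehicle, TAC was followed by a higher level of 61 of the 81 members (limma on log2(normalized count + 1), Benjamini-Hochberg adjusted p under 0.05 over all 13331 genes), against 21.4% of all genes tested. A single member, Rpl3l, was lower, against 23.6% of all genes. The median log2 fold change of the members was 0.38, a 1.30-fold change, with an interquartile range from 0.31 to 0.50, while the median of all genes was 0.00. Both subunits moved alike: 36 of 48 large subunit and 25 of 33 small subunit members rose, with medians of 0.39 and 0.38. The 4 TAC-Veh hearts lay wholly above the 4 Sham-Veh hearts for 19 members, against 18.2% of all genes, and wholly below for 1, against 19.1%. For the higher side this is 19 of 81, near the share of all genes. TAC-Veh replicate 4 held the lowest TAC-Veh value for 80 of the 81 members and lay below the Sham-Veh range for 35 and above it for 19. TAC-Veh replicate 1 held the highest value for 77. The median member of replicates 1 to 4 differed from the Sham-Veh mean by 0.80, 0.38, 0.44 and -0.05 on the log2 scale. Without replicate 1 the count of members called higher was 46 with a median of 0.24, and without replicate 4 it was 77 with a median of 0.53. The shares of all genes called higher in these fits were 20.1% and 22.9%. A fit of only Sham-Veh and TAC-Veh called 32 members higher and 1 lower, against 17.2% and 18.3% of all genes. The main fit shares its spread over groups that differed in it. The median log2 level of the members had an SD of 0.356 among TAC-Veh hearts, and of 0.033 to 0.088 within the other groups. For the members, standard errors and p-values of TAC under vehicle and of THZ1 in TAC may thus be too small.

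Under THZ1, TAC was followed by a higher level of 76 of the 81 members, against 11.4% of all genes, and a lower level of 0, against 12.8%. Rpl3l was the only member with a fold change below 0, and no member was lower at an unadjusted p under 0.05 in limma or called lower by edgeR or DESeq2. The median log2 fold change was 0.51, a 1.43-fold change, with an interquartile range from 0.44 to 0.58, beside 0.00 for all genes. All 4 TAC-THZ1 hearts lay above all 4 Sham-THZ1 hearts for 78 members, against 15.7% of all genes, and below them for 0, against 17.7%. The exceptions were Rpl3l, Rplp2 and Rps4y2. The median member of TAC-THZ1 replicates 1 to 4 was 0.60, 0.46, 0.54 and 0.44 above the Sham-THZ1 mean on the log2 scale. Leaving out any one library left 64 to 78 members called higher, against 6.67% to 14.9% of all genes.

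The TAC effect under vehicle and the TAC effect under THZ1 come from different mice, but share one estimate of the spread per gene. All 61 members called higher under vehicle were among the 76 called higher under THZ1, which is 100% of the first list and 80.3% of the second. Since 93.8% of the members were called under THZ1, most of any such list would lie among them, and the overlap says little. Across the 81 members the fold changes of the 2 comparisons went together (Pearson's r = 0.84, Spearman's rho = 0.73, and r = 0.79 without Rpl3l), a description in which the members of one comparison share the same 8 libraries. The difference between the 2 effects, which is the interaction of THZ1 with TAC, passed the threshold for 1 member, Rpl3l, against 4.4% of all genes in the positive and 5.62% in the negative direction. Its median over the members was 0.11, with a median standard error of 0.17 for a single member, so that a difference of that size could not be resolved gene by gene. The median was 0.24 without TAC-Veh replicate 1, with 4 members called higher, against 6.14% of all genes. It was -0.05 without TAC-Veh replicate 4.

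**Figure D2:**
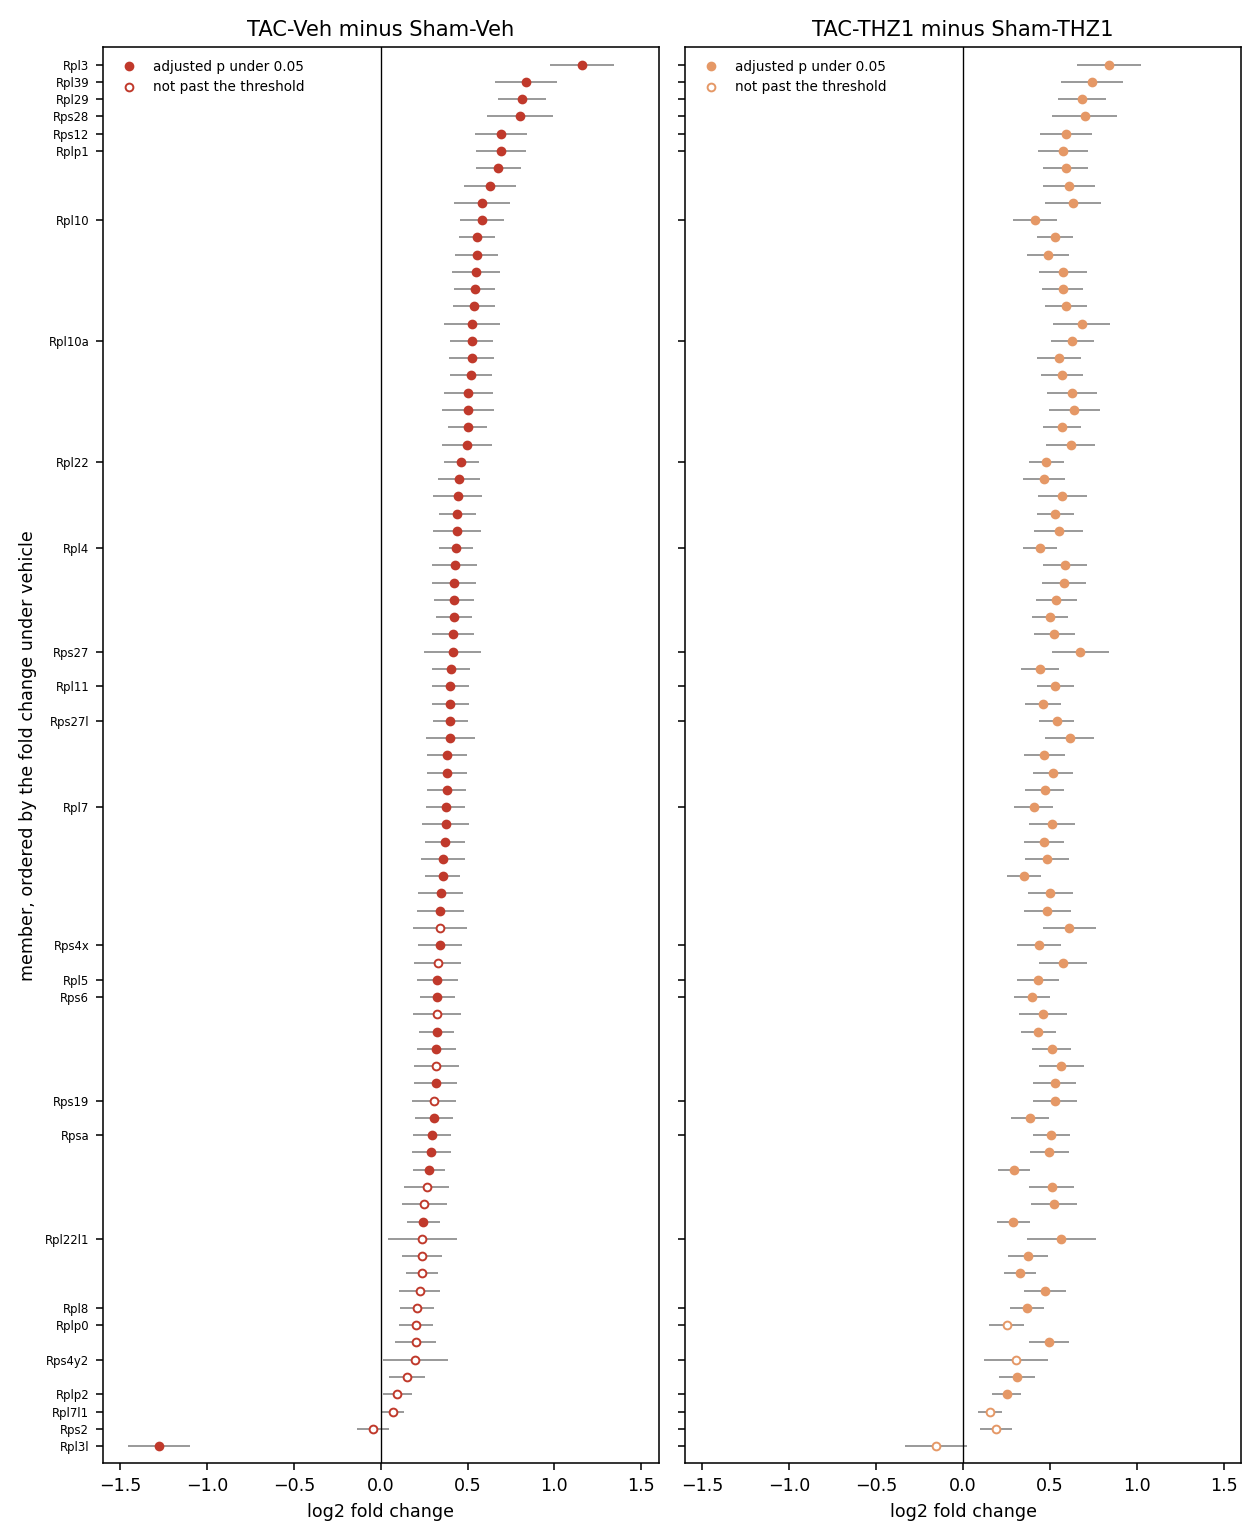
Log2 fold change of each of the 81 members with TAC, under vehicle on the left and under THZ1 on the right, ordered by the value under vehicle, with bars of 1 standard error from limma and filled points where the adjusted p was under 0.05; the members described in the text carry their names. Under vehicle 61 members were higher and Rpl3l lower, and under THZ1 76 were higher and none lower.

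The largest rise with TAC under vehicle was that of Rpl3, a core protein at the peptidyl transferase centre of the large subunit (chr15:79908211-79913836, mm9). Its normalized counts were 1041, 1042, 1064 and 976.5 in Sham-Veh and 3340, 2646, 2013 and 1580 in TAC-Veh. Under THZ1 they were 885.0, 1011, 1064 and 1057 in sham and 1970, 1449, 2405 and 1505 in TAC. Every TAC heart lay above every sham heart, and the 2 TAC groups overlapped. The log2 fold change was 1.16 (SE 0.184, limma adjusted p = 0.00011) under vehicle and 0.84 (SE 0.184, limma adjusted p = 0.00504) under THZ1. Only 8.02% of the 40-base pieces of Rpl3 occur nowhere else in the genome.

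Rpl3l, its striated-muscle paralogue (chr17:24864774-24873094, mm9), went the other way. Its normalized counts were 5224, 5626, 5427 and 5615 in Sham-Veh and 1992, 1454, 3339 and 2683 in TAC-Veh, so that the 2 groups were far apart. They were 5943, 6155, 5579 and 5516 in Sham-THZ1 and 4962, 6288, 4256 and 5507 in TAC-THZ1, where the groups overlapped. The fall with TAC under vehicle was -1.28 on the log2 scale (SE 0.179, limma adjusted p = 3.62e-05), to 0.413 of the sham level. Under THZ1 the change was -0.16 (SE 0.179, limma adjusted p = 0.555). With THZ1 in TAC, Rpl3l rose by 1.20 (SE 0.179, limma adjusted p = 0.00025), and the interaction was 1.12 (SE 0.253, limma adjusted p = 0.0135).

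The 2 paralogues share no 40-base piece, and their coding sequences of 1212 and 1224 bases were identical at 73.3% of aligned positions, so that no whole read is common to both. The ratio of Rpl3l to Rpl3 normalized counts was 5.02, 5.40, 5.10 and 5.75 in Sham-Veh and 0.596, 0.549, 1.66 and 1.70 in TAC-Veh. It was 6.72, 6.09, 5.24 and 5.22 in Sham-THZ1 and 2.52, 4.34, 1.77 and 3.66 in TAC-THZ1. The TAC-THZ1 hearts thus lay between the TAC-Veh and the sham hearts, without overlap on either side. In TAC-Veh replicate 4, where the sum of the members was slightly below the sham range, this ratio was far below it. The log2 ratio differed by -2.44 between TAC-Veh and Sham-Veh, by -0.995 between TAC-THZ1 and Sham-THZ1 and by 1.57 between TAC-THZ1 and TAC-Veh, each reaching the lower limit of an exact permutation test (two-sided) between groups of 4, p = 0.0286, which adjusted to 0.163 over the 20 ratios compared, 4 for each of 5 paralogue pairs. The difference of Sham-THZ1 from Sham-Veh was 0.12 (exact permutation p = 0.257, adjusted 0.396). The ratio is one of counts and not of molecules, because a read of Rpl3 has more other places in the genome than a read of Rpl3l.

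**Figure D3:**
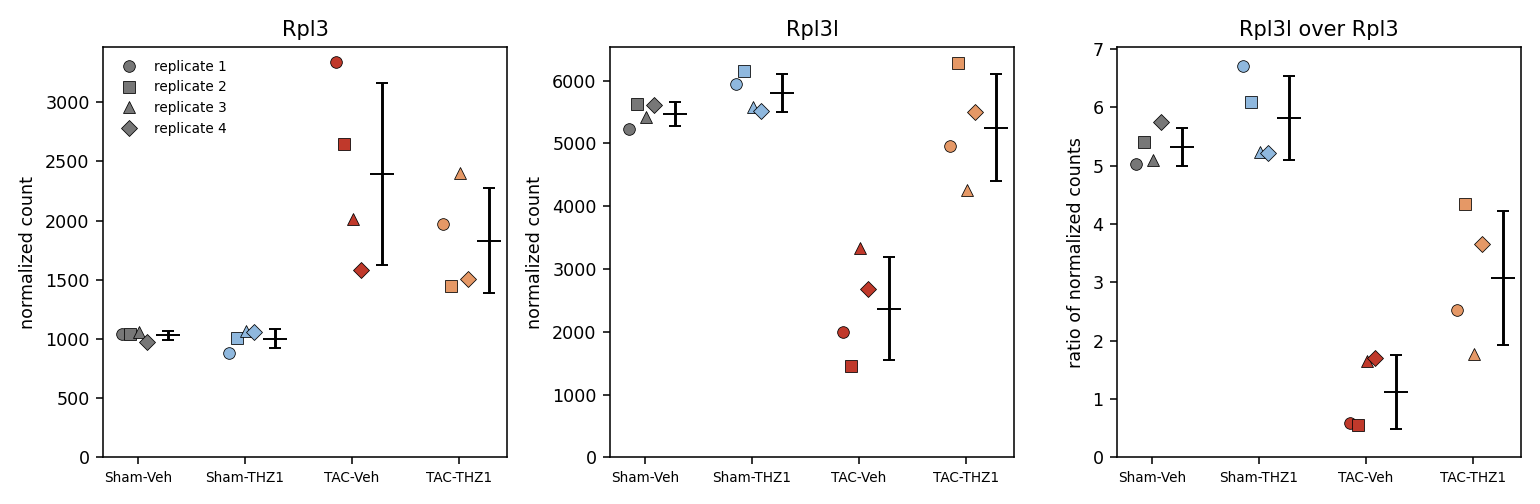
Normalized counts of Rpl3 and of Rpl3l and the ratio of Rpl3l to Rpl3 in each library, by group, with marker shape for the replicate number and mean ± SD of 4 hearts beside the points. The ratio was 5.02 to 6.72 in the 8 sham hearts, 0.549 to 1.70 in TAC-Veh and 1.77 to 4.34 in TAC-THZ1.

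The other members with the largest rises under vehicle were Rpl39, Rpl29, Rps28 and Rps12. Rpl39, a small protein lining the exit tunnel, had 450.8, 470.9, 491.6 and 433.1 normalized counts in Sham-Veh and 1302, 887.4, 779.7 and 511.9 in TAC-Veh, a log2 fold change of 0.84 (limma adjusted p = 0.00121). Rpl29 of the large subunit had 225.9, 213.4, 267.0 and 251.6 in Sham-Veh and 572.6, 429.0, 421.0 and 301.5 in TAC-Veh, a change of 0.81 (limma adjusted p = 0.000189). For both, each TAC-Veh heart was above each Sham-Veh heart, with replicate 4 closest to them. Rps28 rose by 0.80 and Rps12 by 0.69, both of the small subunit (limma adjusted p = 0.0026 and 0.00133), and for Rps28 replicate 4 lay inside the Sham-Veh range. Under THZ1 the same 4 genes rose with TAC by 0.74, 0.68, 0.70 and 0.59.

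The proteins of the ribosomal stalk did not move as one. Rplp1 rose by 0.69 with TAC under vehicle (limma adjusted p = 0.0011) and by 0.57 under THZ1 (0.0107). Its counts went from 3255 to 3468 in Sham-Veh and from 3754 to 7836 in TAC-Veh. For Rplp0, the stalk base, the log2 fold changes of 0.20 and 0.25 did not pass (limma adjusted p = 0.109 and 0.0768). Rplp2, the dimer partner of Rplp1, had 2812, 2767, 2519 and 2745 normalized counts in Sham-Veh, 2962, 3237, 2990 and 2910 in Sham-THZ1, 3213, 2628, 3255 and 2552 in TAC-Veh and 3872, 3679, 3637 and 3231 in TAC-THZ1. Its change with TAC under vehicle was 0.10 (limma adjusted p = 0.362), and it rose by 0.25 under THZ1 (limma adjusted p = 0.0351), a call that 6 of the 16 fits without 1 library lost. Rpsa, the laminin receptor precursor of the small subunit, rose by 0.30 and 0.51 (limma adjusted p = 0.0347 and 0.00444).

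Of Rps6, Rpl5, Rpl11 and Rps19, which were picked by name, Rps6 and Rpl5 had smaller changes than the median member in both comparisons. Rps19 did so only under vehicle, and Rpl11 in neither. Rps6, the substrate of the S6 kinases, rose by 0.33 with TAC under vehicle and by 0.40 under THZ1 (limma adjusted p = 0.0162 and 0.0118). Rpl5 and Rpl11, which bind 5S rRNA and can restrain Mdm2, rose by 0.33 and 0.40 under vehicle (0.0343 and 0.00641, limma adjusted) and by 0.43 and 0.53 under THZ1 (0.0168 and 0.00343). Rps19, a gene mutated in Diamond-Blackfan anaemia, had 0.31 under vehicle (limma adjusted p = 0.0564), short of the threshold, and rose by 0.53 under THZ1 (0.00823). The calls of Rpl5 and Rpsa under vehicle were lost in 7 of the 16 fits without 1 library.

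Apart from Rpl3l, the paralogues showed values of the same sign as their standard genes. Rpl22 rose by 0.46 with TAC under vehicle and by 0.48 under THZ1 (limma adjusted p = 0.00145 and 0.00416). Rpl22l1 was at 0.24 (limma adjusted p = 0.351) and 0.57 (0.0491), at 0.0510 to 0.0630 of the Rpl22 count in the group means, and its call under THZ1 was lost in 14 of the 16 fits without 1 library. Rps27 and Rps27l rose by 0.41 and 0.40 under vehicle (limma adjusted p = 0.047 and 0.00389) and by 0.68 and 0.54 under THZ1 (0.00828 and 0.00212); the call of Rps27 under vehicle was lost in 14 of those fits. Rpl7 rose by 0.37 and 0.41 (limma adjusted p = 0.0121 and 0.0162), while Rpl7l1 was at 0.07 and 0.15 (0.434 and 0.106). Rps4x rose by 0.34 and 0.44 (0.0377 and 0.0207), the former call lost in 7 of those fits, and Rps4y2 was at 0.20 and 0.30 (0.406 and 0.243). Rpl10, whose paralogue was below the filter, rose by 0.58 and 0.41 (0.00151 and 0.0267), the latter call lost in 4 of those fits. For these 4 other pairs the adjusted permutation test could not have passed unless most of the 20 ratios lay at its lower limit, and it says nothing of whether their ratios changed. The members highest per kilobase differed: Rpl4 rose by 0.43 and 0.44 (limma adjusted p = 0.00199 and 0.00525), and Rpl8 was at 0.21 (0.0895) and rose by 0.37 (0.0134). Rpl10a, the lowest per kilobase, rose by 0.52 and 0.63 (0.00276 and 0.00303).

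THZ1 in TAC hearts was compared with vehicle in TAC hearts, a comparison that shares the TAC-Veh libraries with the TAC effect under vehicle. Few members passed: 3 were higher, against 15.1% of all genes, and 0 were lower, against 14.2%. No member was lower at an unadjusted p under 0.05 in limma, and edgeR and DESeq2 called 0 lower. The 3 were Rpl3l, Rplp2 (0.31, SE 0.0818, limma adjusted p = 0.00923) and Rps2, a small subunit protein at the mRNA entry (0.27, SE 0.0909, limma adjusted p = 0.032). Rps2 had 5006, 4194, 5239 and 3606 normalized counts in TAC-Veh and 5069, 5934, 5212 and 5415 in TAC-THZ1, which overlapped, and its call was lost in 4 of the 16 fits without 1 library. With TAC under vehicle its change was -0.04 (limma adjusted p = 0.724). The hearts of the groups did not overlap for 1 member on the higher side, Rpl3l, against 9.53% of all genes, and for 0 on the lower side, against 10.5%. The median of the members was 0.14, beside 0.01 for all genes. For Rpl3 the value was -0.36 (SE 0.184, limma adjusted p = 0.151).

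This comparison turned on which TAC-Veh hearts were in it. Without TAC-Veh replicate 1, the highest, 45 members were called higher and none lower, with a median of 0.26. That fit called 16.3% of all genes higher and 14.3% lower. Without TAC-Veh replicate 4, the lowest, 2 were called higher (Rpl3l and Rplp2) and 2 lower (Rpl3, -0.54, limma adjusted p = 0.0212, and Rpl10, -0.27, limma adjusted p = 0.0334), with a median of -0.01. The shares of all genes there were 16.5% higher and 14.7% lower. Without TAC-Veh replicate 3 the count called higher was 5, against 17.6% of all genes. Rpl3l stayed called in each of these fits. The spread of the TAC-Veh hearts, a standard deviation of 0.36 in the median log2 level of the members against 0.088 in TAC-THZ1, was larger than the difference between the groups.

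**Figure D4:**
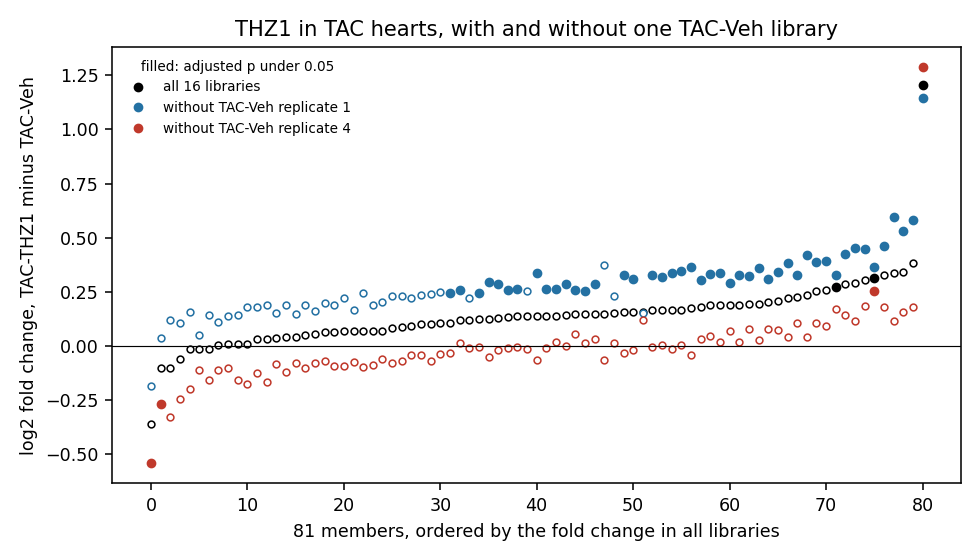
Log2 fold change of each member between TAC-THZ1 and TAC-Veh, ordered by the value in all 16 libraries (black), and again without TAC-Veh replicate 1 (blue) or replicate 4 (red), filled where the limma adjusted p was under 0.05. The medians were 0.14, 0.26 and -0.01, and Rpl3l, at the far right, was called in all 3.

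In sham hearts THZ1 was not followed by a detectable change of the members. None was called by limma, edgeR or DESeq2, against 0.0225% of all genes higher and 0.045% lower in limma, and none had an unadjusted p under 0.05. The median was 0.04, with members from -0.18 to 0.28 and a median standard error of 0.12. The groups did not overlap for 5 members on the higher side, against 6.29% of all genes, and for 3 on the lower side, against 5.05%. When only Sham-Veh and Sham-THZ1 were fitted, 1 member was called higher, Rps9, named here after its value was seen. That fit called 2.15% of all genes higher and 1.34% lower.

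Other parts of the translation machinery were read against the shares of all genes, which were 21.4% higher and 23.6% lower with TAC under vehicle, 11.4% and 12.8% with TAC under THZ1, and 15.1% and 14.2% with THZ1 in TAC. These lists were put together with earlier results of these data known. Of 63 measured ribosome biogenesis factors, 28 rose and 4 fell with TAC under vehicle (44.4% and 6.35%, median 0.19), and 16 rose and 2 fell under THZ1 (25.4% and 3.17%, median 0.13). Rrp12 (0.93) and Nhp2 (0.83), which act in pre-rRNA maturation, rose the most, and Polr1a (-0.65), the largest subunit of RNA polymerase I, and Rrs1 (-0.64) fell the most (limma). Of 38 initiation factors, 12 rose and 6 fell under vehicle (31.6% and 15.8%, median 0.07) and 9 rose and 1 fell under THZ1 (23.7% and 2.63%, median 0.12), with Eif1a (0.85) and Eif4a1 (0.68) the highest and Eif4e (-0.31) and Eif1 (-0.30) the lowest under vehicle.

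Of 13 elongation and release factors, 6 rose and 1 fell under vehicle, and 4 rose and 0 fell under THZ1. The pair Eef1a1 and Eef1a2 had opposite signs, as Rpl3 and Rpl3l had. Eef1a1, the widely expressed elongation factor, had 7936 to 8417 normalized counts in Sham-Veh and 11348 to 19173 in TAC-Veh (log2 fold change 0.89). Eef1a2, the form of adult muscle and neurons, had 22549 to 26540 in Sham-Veh and 14782 to 22393 in TAC-Veh (-0.42, limma adjusted p = 0.00389). For neither did the groups overlap. Of 18 other ribosome-associated and TOP mRNAs, which include Eef1a1, 11 rose and 2 fell under vehicle and 9 rose and 1 fell under THZ1. Fau, which encodes the small subunit protein eS30 and lies outside the naming rule, rose by 0.50, and Naca, of the nascent chain complex, fell by 0.89.

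Of 31 genes of the TORC1 pathway, 4 rose and 13 fell with TAC under vehicle (12.9% and 41.9%, median -0.13), and 2 rose and 6 fell under THZ1 (6.45% and 19.4%, median -0.07). The 4 that rose included Myc (1.04) and the translation repressor Eif4ebp1 (0.64), and Ddit4l (-0.86) and Rragb (-0.81) fell the most. With THZ1 in TAC the calls of these lists were 3 higher and 7 lower for biogenesis, 3 and 4 for initiation, 2 and 2 for elongation and release, 1 and 3 for the ribosome-associated and TOP mRNAs and 5 and 4 for TORC1, the last being 16.1% and 12.9% of the list, near the shares of all genes. In sham hearts limma called none of them with THZ1.

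Mitochondrial ribosomal proteins build the separate ribosome of the mitochondrion. Of 76 tested, 9 rose and 11 fell with TAC under vehicle, 11.8% and 14.5% of the list against 21.4% and 23.6% of all genes, with a median of -0.02. Under THZ1, 36 rose with TAC and 0 fell (median 0.25), 47.4% against 11.4% of all genes on the higher side. With THZ1 in TAC 47 rose and 0 fell (median 0.27), 61.8% against 15.1%. For the interaction 8 passed, all on the higher side, 10.5% against 4.4% of all genes. The cytosolic members, beside these, had 61, 76, 3 and 1 called on the higher side in the same 4 comparisons.

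**Figure D5:**
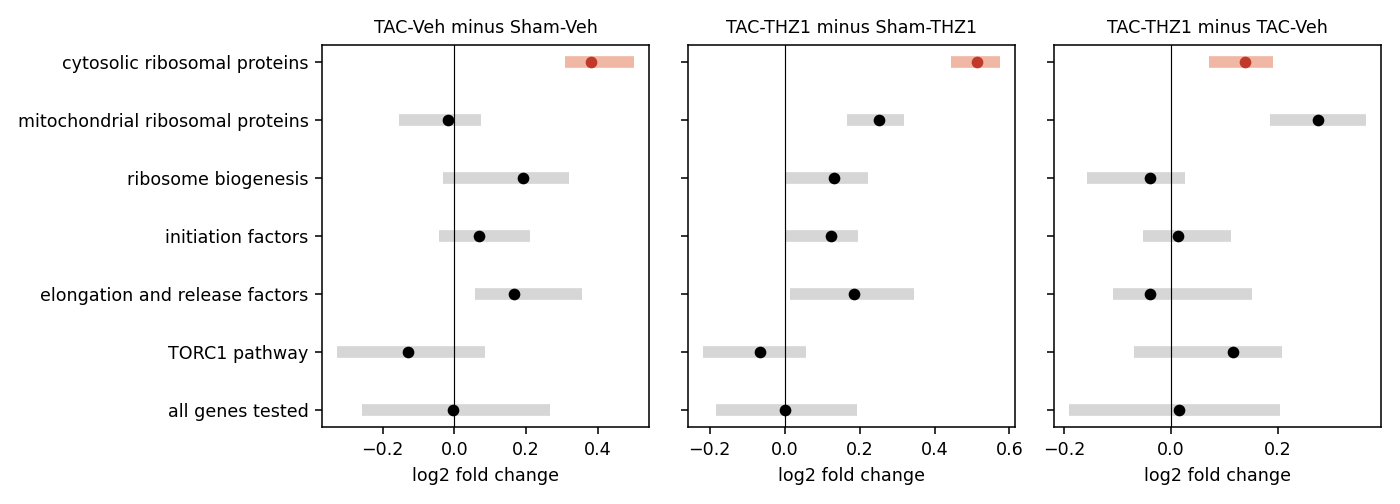
Median (point) and interquartile range (bar) of the log2 fold changes of the 81 cytosolic ribosomal protein genes, of 5 other lists and of all 13331 genes tested, for TAC under vehicle, TAC under THZ1 and THZ1 in TAC. The cytosolic members had medians of 0.38, 0.51 and 0.14, and the mitochondrial ribosomal proteins -0.02, 0.25 and 0.27.

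The members with and without a long pyrimidine run did not stand apart. The median with TAC under vehicle was 0.38 over the 21 members with a run of at least 8, of which 16 rose, and 0.40 over the 38 with a shorter run, of which 30 rose and Rpl3l fell. Under THZ1 the medians were 0.50 and 0.52. The share of unique pieces made as little difference: 26 of 38 members with at least 50% rose under vehicle, with a median of 0.38, and 35 of 43 with less, with a median of 0.40.

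Markers of other cell types moved with TAC beside the members, and their part in the results was not tested. The counts below stand beside the same shares of all genes, 21.4% higher and 23.6% lower with TAC under vehicle and 11.4% and 12.8% with TAC under THZ1. No marker gene on these lists was at 0 in every library. The summed level of 10 fibroblast markers was 30857 to 34970 normalized counts in the 8 sham hearts, 76228 to 167244 in TAC-Veh and 32933 to 47054 in TAC-THZ1. Of the 10, 8 rose with TAC under vehicle, and 3 rose and 1 fell under THZ1. The group mean of the sum was 41012 in TAC-THZ1 and 32785 in Sham-THZ1. Postn (4.65) and Col3a1 (1.59) had the largest log2 fold changes under vehicle. Of 10 macrophage markers, 6 rose with TAC under vehicle and 6 under THZ1, led by C1qb (0.97) and C1qa (0.87), with sums of 9448 to 11859 in sham, 14988 to 18487 in TAC-Veh and 10876 to 21925 in TAC-THZ1. Of 12 cardiomyocyte markers, 1 rose (Myh7, 4.24) and 5 fell with TAC under vehicle, among them Myh6 (-1.20) and Pln (-0.86), and 2 rose and 2 fell under THZ1. Their sum was 1678120 to 1787097 in sham hearts, 1025527 to 1423851 in TAC-Veh and 1540492 to 1870090 in TAC-THZ1. With THZ1 in TAC 7 cardiomyocyte markers rose and 0 fell, 0 fibroblast markers rose and 7 fell, and no macrophage marker passed. The shares of all genes in that comparison were 15.1% higher and 14.2% lower. Of the 7 atrial genes listed, 5 passed the filter on low values, Nppa and Tbx5 among them. Myl7 and Sln did not, and averaged 1.32 and 0.485 normalized counts over all libraries.

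Endothelial markers had 2 rising (Egfl7 0.34 and Emcn 0.21) and 2 falling (Kdr -0.39 and Cdh5 -0.32) of 10 with TAC under vehicle, close to the shares of all genes, and mural markers 1 rising (Tagln 0.80) and 3 falling of 8 (Myh11 -0.95 and Rgs5 -0.38 the most). Of the atrial genes, Nppa rose (4.76) and Tbx5 fell (-1.19) among 5 tested. None of 5 lymphocyte, 4 neutrophil and 7 erythroid markers tested passed with TAC under vehicle. With TAC under THZ1, 3 of the 4 neutrophil markers rose, with sums over the 7 listed genes of 206 to 7046 in TAC-THZ1 against 80 to 537 in Sham-THZ1. The erythroid sum was 7129 to 31321 in TAC-THZ1 and 5694 to 10200 in Sham-THZ1.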

How the data were processed

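Libraries from a stranded mRNA kit were read as single 40-base ends. The authors aligned them with TopHat2 2.1.1 to mm9 (NCBIM37), used htseq-count in reverse-stranded mode on GENCODE genes and divided each library by a DESeq2 size factor, and the deposited signal is that normalized count. Within a library 100% of values were whole multiples of the smallest step (tolerance 0.01), which gave back whole reads. Positions and exon lengths come from GENCODE on NCBIM37, and start windows from RefSeq (GRCm38.p6). Groups were compared with limma 3.58.1 (R 4.3.3), fitted to log2(normalized count + 1) as 4 group means in all 16 libraries at once, with eBayes, a trend and Benjamini-Hochberg adjustment over 13331 genes per contrast (those reaching 10 normalized counts in 4 or more libraries). Fold changes are on that scale, and a call is an adjusted p under 0.05 with no minimum fold. On the recovered reads, edgeR 4.0.16 called 6067 and DESeq2 1.42.0 6153 genes for TAC under vehicle, beside 6003 in limma. Scripts were tested on simulated data. Members, lists and tests were chosen with earlier results of these data known, and the test of paralogue ratios was added after values were seen. Named members were the paralogue pairs, the stalk proteins and Rpsa, Rps6, Rpl5, Rpl11 and Rps19, up to 5 members past the threshold in each direction with the largest change for TAC under vehicle and for THZ1 in TAC, members called in sham or for the interaction, and the 3 highest and 3 lowest per kilobase, with up to 2 genes per direction from each other list. Alternatives were other scalings, pseudocounts, filters, fits and tools, a replicate block and each library left out.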

Additional observations from a re-analysis of the deposited data

Results flagged for a closer look

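The change of Rpl3l with TAC differed between vehicle and THZ1 by a test of the difference itself, an interaction of 1.12 on the log2 scale (limma adjusted p = 0.0135). Its count was higher in 4 of 4 TAC-THZ1 hearts than in any TAC-Veh heart, and the adjusted p over the alternatives ran from 0.00089 to 0.0323.

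Among 112 sets of 4 replicates (the sum and 27 named members in 4 groups), 4 had 1 library far from the other 3 by Dixon's ratio. That is a smaller share than the 1 in 20 or so that chance gives. The Sham-Veh sum was lowest in replicate 4 (158506, the others 164495 to 165610). Rps28 was highest in Sham-Veh replicate 3 (443.8, the others 363.0 to 374.6), Rpl7l1 in TAC-THZ1 replicate 3 (1003, the others 882.2 to 895.5) and Rps27 in TAC-THZ1 replicate 1 (2641, the others 2129 to 2160). TAC-Veh replicates 1 and 4 did not meet this rule for the sum, since the 4 libraries of that group were spread throughout their range.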

How the results depend on the processing

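Leaving out each library in turn gave 46 to 77 members called higher and 1 to 1 lower with TAC under vehicle, 64 to 78 higher and 0 to 0 lower with TAC under THZ1, 2 to 45 higher and 0 to 2 lower with THZ1 in TAC, 0 to 0 in sham and 1 to 4 for the interaction. The medians ran from 0.24 to 0.53, 0.48 to 0.53, -0.01 to 0.26, 0.02 to 0.05 and -0.05 to 0.24 in the same order. The shares of all genes called higher were 17.8% to 22.9% with TAC under vehicle and 6.67% to 14.9% under THZ1. They were 10.2% to 17.6% with THZ1 in TAC and 1.85% to 9.32% for the interaction. The 4 for the interaction were called without TAC-Veh replicate 1, against 6.14% of all genes on the higher side. A fit of only the groups compared called 32 members higher with TAC under vehicle, 1 higher with THZ1 in TAC and 1 with THZ1 in sham. The shares of all genes called higher in those fits were 17.2%, 4.37% and 2.15%. Such a fit takes its spread from the 2 groups compared and not from all 4. Array weights called 6 higher with THZ1 in TAC and 2 for the interaction, against 9.83% and 6.83% of all genes on the higher side. At an adjusted p under 0.01, 32 members were higher with TAC under vehicle, 45 with TAC under THZ1, and 0 passed for the interaction. The cause of these differences was not tested, apart from the stricter threshold and the smaller number of libraries. Other scalings, pseudocounts, filters, DESeq2 and edgeR left these counts within 1.5 times and the medians and sums within 1 SD of the replicates. Scaling to the total outside the mitochondrial genes moved the split of all genes called with TAC under vehicle from 47.6% to 59.7% higher and that with THZ1 in TAC from 51.5% to 37.4%, while the members called with TAC under vehicle were 74 higher and 1 lower. Under that scaling 26.2% of all genes were called higher and 17.7% lower with TAC under vehicle. Same-numbered samples of different groups correlated at -0.43 to 0.16 over all genes tested, and 2 of 24 pairs exceeded 0.1. The numbers thus showed no general pairing of the mice. This correlation does not cover the members by themselves, whose sum was lowest in replicate 4 of every group. A replicate block gave 65 higher and 1 lower with TAC under vehicle, 75 and 0 under THZ1, 4 and 0 with THZ1 in TAC, 0 in sham and 1 for the interaction. The calls of named members kept their sign in the fits run. Of 1408 values followed, 85 lost the call. The 1408 include 30 values of Rpl3 with THZ1 in TAC and 29 of its interaction, which were not calls in the main fit. Some named members that were not called did change sign, and those given here are examples and not all of them. With TAC under vehicle Rps2 went to 0.06 without TAC-Veh replicate 4 and Rpl22l1 to -0.02 without replicate 1. With THZ1 in TAC Rpl10 and Rpl39 went from -0.10 and -0.10 to 0.04 and 0.12 without replicate 1. Groups of 4 mice limit what can be said of the members with THZ1 in TAC.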

Other observations

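Rps2 and Rpl3l, 2 of the 3 members called higher with THZ1 in TAC, are neighbours on mouse chromosome 17, with 5.90 kb between the end of Rps2 (chr17:24855061-24858874, mm9) and the start of Rpl3l. Ndufb10, a mitochondrial complex I subunit on the other strand between them, was also higher with THZ1 in TAC (log2 fold change 0.54, limma adjusted p = 0.0024). With TAC under vehicle Rpl3l fell by 1.28, while Rps2 (-0.04, limma adjusted p = 0.724) and Ndufb10 (-0.24, limma adjusted p = 0.0935) did not pass. The neighbours were looked at after their values were seen.

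Sham-Veh replicate 4 held the lowest value of its group for 52 of the 81 members and Sham-THZ1 replicate 4 for 56. Among the TAC-Veh hearts replicate 4 was likewise lowest for 80 members, and among the TAC-THZ1 hearts for 41. Replicate 4 thus held the lowest value more often than any other replicate in every group. The reason was not tested.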
